A study of Mus musculus with 2 samples.

Results

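The BMP, GDF, activin and TGF-β ligands, their receptors and the Smad proteins form 1 signalling family, and 55 genes named for it or acting in it were followed here through the CpG states of mouse embryonic stem cells. The genes were taken by symbol from the 20807 autosomal protein-coding genes of the GENCODE vM21 annotation of mm10 and comprise 19 BMP or GDF ligands, 3 TGF-β ligands, 5 activin or inhibin subunits, 7 type I receptors, 4 type II receptors, 2 co-receptors, 8 Smads, the 4 Id genes and 3 genes that the symbols bring in but that belong to none of these classes (Bmp1, a protease, Tgfb1i1 and Tgfbrap1). The symbol rule itself uses no measured value. Their sites were the CpGs of the gene span and of the 5 kb before its start. In this pathway a ligand dimer brings type II and type I receptor kinases together, and the type I receptor phosphorylates receptor Smads, Smad1, Smad5 and Smad9 for most BMPs and Smad2 and Smad3 for activin and TGF-β. These join Smad4 and act on genes in the nucleus. Smad6 and Smad7 inhibit the pathway and are themselves induced by it, and the Id genes, which encode inhibitors of basic helix-loop-helix factors, are classical BMP targets that help embryonic stem cells grown with LIF to stay undifferentiated.

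The cells were E14, an established mouse embryonic stem cell line, grown feeder-free on gelatin with fetal bovine serum and LIF. Per the study, the DNA came from 2 different passages of the line. There was no treatment or control arm, so that the 2 samples were replicates of 1 condition and no difference between samples could be tested. SCoTCH-seq reads cytosine (C), 5-methylcytosine (M) and 5-hydroxymethylcytosine (H) on both strands of the same DNA molecule and so assigns each CpG 1 of 9 states: CC is unmodified, MM symmetrically methylated, MC/CM methylated on 1 strand, HC/CH hydroxymethylated opposite an unmodified cytosine, HM/MH hydroxymethylated opposite a methylcytosine, and HH symmetric hydroxymethylation. A level is the percentage of all CpG-state calls in a region, and the promoter is 1 kb either side of the gene start, the body the rest of the gene. Replicate 1 held 13366464 autosomal sites with a mean of 10.6 calls and replicate 2 held 4882356 with 6.37. In the regions of the 55 genes the numbers were 24255 sites (241740 calls) and 8449 sites (52626 calls), of which 7565 were shared. Intervals are exact 95% binomial (Clopper-Pearson) intervals that cover counting error only. The promoters of the stem cell genes Pou5f1, Sox2, Zfp42, Tdgf1 and Dppa4 were at 97.2 to 100% CC in both replicates and that of Nanog at 80.1 and 86.2%, whereas that of Esrrb, taken at its outermost start, was at 28.0 and 15.0%.

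Just over 50% of the family's measured promoters had at least 80% CC in both replicates. A promoter was called unmodified when at least 80% of its calls were CC in both replicates and modified when under 50% were, with at least 5 sites in each. Of the 48 promoters measured, 26 (54.2%) were unmodified, close to the 53.2% of the 14907 promoters measured genome-wide. Of the same 48, 5 (10.4%) were modified, against 19.5% genome-wide, and 17 were neither. The modified count was 10 of 48 in replicate 2 alone and 10 of 44 on sites covered in both replicates, and the genome-wide share was not computed for these settings. The median CC level was 85.3% in replicate 1 and 85.8% in replicate 2 over these genes, and 87.1 and 84.6% over all promoters. Too few sites were covered in replicate 2 at Gdf5, Inhbb, Acvr1, Acvr1c, Tgfbr3, Tgfbr3l and Bmp1.

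Among the BMP and GDF ligands, 9 of 18 measured promoters were unmodified, those of Bmp4, Bmp7, Bmp8a, Bmp8b, Gdf1, Gdf3, Gdf6, Gdf9 and Gdf11. Bmp7, a ligand of kidney and eye development, stood highest, at 98.5% CC (201 of 204 calls) and 100% (0 of 58 calls modified). The latter allows a modified share of up to 5.17%, taken here and for the Smads as 3 counts of the total. Bmp4, a ligand of mesoderm and germ cell formation, was at 95.1 and 92.4%, and Gdf3, a Nodal-related ligand of the early embryo, at 95.3 and 98.9%. The other 6 lay between 81.0% (Gdf1, replicate 1) and 99.1% (Gdf6, replicate 2), Gdf9 at its outermost start only. Gdf1 was at 64.0 and 71.7% on the 8 promoter sites covered in both replicates. Its span overlaps Cers1 and Upf1, and that of Bmp8b overlaps Oxct2b and Ppie. The 3 modified promoters of this group belonged to Bmp5 (10.9 and 8.25% CC), Gdf2, which encodes the vascular ligand BMP9 (13.8 and 19.7%), and Bmp10, its cardiac relative (16.4 and 20.8%). These 3 lay below every other measured BMP or GDF ligand promoter in both replicates. Of the 6 that met neither limit, Bmp2 was at 78.4 and 74.5%, Bmp3 at 67.1 and 51.6%, Gdf10 at 79.2 and 90.3%, and Gdf15 at 74.7 and 59.5%, and Bmp6 and Gdf7 differed between replicates more than these. Symmetric methylation made up 65.9 and 69.1% of calls at Bmp5, 58.8 and 49.2% at Gdf2, and 58.6 and 66.0% at Bmp10.

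The activin and inhibin subunits had no unmodified promoter among the 4 measured. Inhbe (22.0 and 15.7% CC) and Inhbc (43.2 and 45.0%), neighbouring genes of subunits made mainly in liver, were modified. Inhba, which encodes the subunit of activin A, was at 66.0 and 52.6% and Inha, the inhibin α subunit, at 64.0 and 39.1%. Inhbb was at 98.8% over 33 sites in replicate 1 and had 3 sites, at 94.7%, in replicate 2. No subunit promoter reached 80% in both replicates with enough sites.

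The type II receptor promoters of Bmpr2 (98.3 and 98.5% CC), Acvr2a (94.0 and 89.6%) and Tgfbr2 (85.0 and 84.2%) were unmodified, and that of Acvr2b was at 92.3 and, over 5 sites, 77.4%. At the principal transcript start of Acvr2b, 326 bp further in, it was at 97.6 and 93.5% over 47 and 11 sites. Of the 5 type I receptor promoters measured, only that of Tgfbr1 (97.6 and 96.2%), the TGF-β receptor kinase, was unmodified in both replicates at the outermost start. Bmpr1b stood at 61.8 and 48.1%, Acvr1b at 71.5 and 60.9%, Bmpr1a at 84.9 and 55.4% (96.7 and 92.5% at its principal start, 654 bp further in), and Acvrl1, the endothelial receptor of BMP9, at 80.7 and 66.4%. Of the TGF-β ligands, Tgfb1 (92.4 and 92.6%) and Tgfb3 (80 and 91.6%) were unmodified and Tgfb2 was at 75 and 69.8%.

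Of the 8 Smad promoters 6 were unmodified, and those of the inhibitory Smads had the highest mean CC of the 48 measured. At Smad7 all 301 calls of replicate 1 and all 52 of replicate 2 were CC, which allows a modified share of up to 0.997 and 5.77%. Smad6, the other inhibitory Smad, was at 99.3% (443 calls) and 100% (73 calls). Smad3 was at 98.5 and 98.2%, Smad2 at 95.4 and 100%, Smad4, the shared partner, at 91.3 and 84.6%, and Smad5 at 85.7 and 89.7%. The exceptions were Smad9 (57.05 and 15.4%) and Smad1 (71.6 and 100%), whose intervals did not overlap between replicates. The 100% of Smad2 and of Smad1 rests on 35 calls over 7 sites each, which allows a modified share of up to 8.57%. Of the Id genes, Id1 (94.3 and 87.1%), Id4 (88.7 and 87.2%) and Id3 (83.8 and 82.1%) were unmodified, and Id2 was at 78.8 and 47.9%. Tgfb1i1 and Tgfbrap1 were unmodified too, at 92.3 and 91.7% and at 95.7 and 95.6%.

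**Figure D1:**
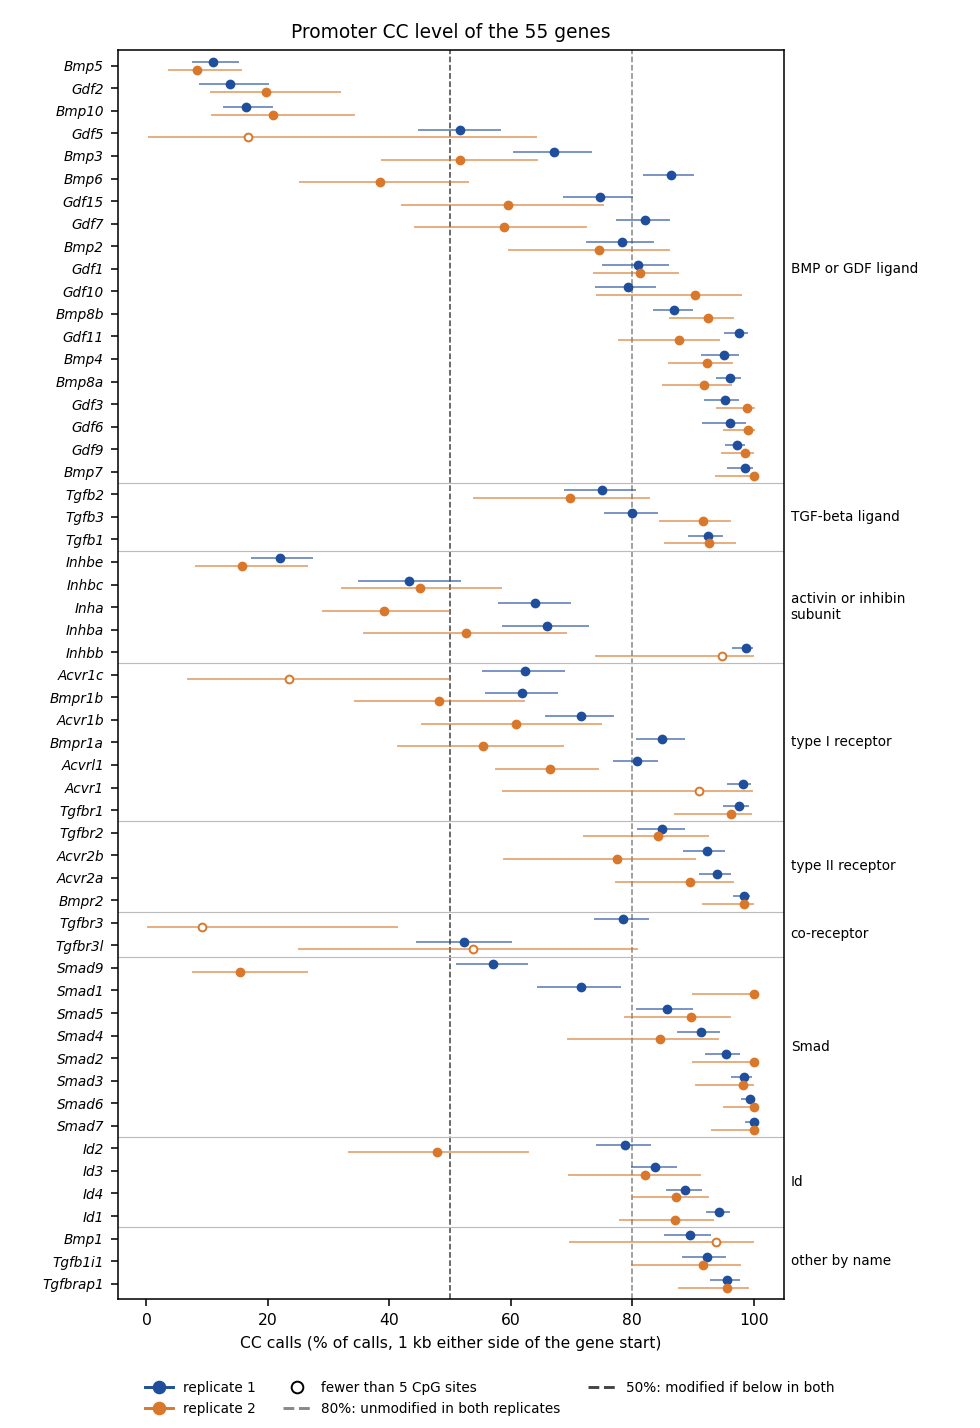
Promoter CC level of each of the 55 genes in replicate 1 (blue) and replicate 2 (orange), as a percentage of calls within 1 kb of the gene start, grouped by role. Lines are 95% binomial intervals, open points have under 5 CpG sites, and dashed lines mark 50 and 80%. Bmp5, Gdf2, Bmp10, Inhbe and Inhbc lie below 50% in both replicates, and Smad6 and Smad7 at 99.3% or more.

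Where the replicates differed they often read different CpGs. At Bmp6 the promoter was at 86.3% CC over 42 sites in replicate 1 and 38.5% over 9 in replicate 2, but the 7 shared sites gave 38.2 and 43.9%. At Smad9 10 shared sites gave 23.5 and 15.4%, at Inha 9 gave 23.3 and 22.2%, at Bmp3 7 gave 21.0 and 34.2%, and at Smad1 2 gave 96.4 and 100%. At these 5 promoters the replicates differed less on shared sites, whereas at Inhba 6 shared sites gave 72.5 and 50%, further apart than the 66.0 and 52.6% over all sites. At Id2 7 shared sites gave 62.7 and 47.6%, at Bmpr1a 8 gave 72.3 and 55.4%, and at Gdf7 7 gave 77.6 and 58.8%, against 82.1 and 58.8% over all sites. On shared sites 21 of 44 promoters were unmodified. Of those unmodified over all sites, Gdf1, Tgfbr2 (70.5 and 75% over 6 sites) and Id1 (78.9 and 83.1% over 11) did not reach 80% in both replicates there. The unmodified promoters of the family held a median of 120 CpGs within 1 kb of the start, and replicates 1 and 2 covered 35.3 and 10.5% of these. The 5 modified promoters held a median of 33, of which 76.5 and 30.9% were covered. Genome-wide the medians were 97 and 25 CpGs.

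The letters before the start show this difference. Shown are the 200 bases upstream of the gene start (GRCm38.p6, RefSeq, strand of the gene, CpGs in capitals) of the 2 genes with the highest and the 2 with the lowest promoter CC among those with at least 10 sites in each replicate and a sequence that could be printed. Smad6 lies on chromosome 9 from 63953076 to 64022059 (minus strand) and its stretch, chr9:64022060-64022259, holds 20 CpGs. Bmpr2 lies on chromosome 1 from 59763400 to 59879014 (plus strand), with 24 CpGs in chr1:59763200-59763399. Bmp5 lies on chromosome 9 from 75775364 to 75900310 (plus strand), with 3 CpGs in chr9:75775164-75775363, and Inhbe on chromosome 10 from 127348857 to 127354411 (minus strand), with 4 CpGs in chr10:127354412-127354611. No annotated exon falls in these stretches.
Smad6: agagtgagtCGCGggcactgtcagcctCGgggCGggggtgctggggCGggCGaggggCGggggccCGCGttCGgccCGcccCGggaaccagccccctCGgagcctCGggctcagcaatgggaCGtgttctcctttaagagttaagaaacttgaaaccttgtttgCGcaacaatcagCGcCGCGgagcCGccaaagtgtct
Bmpr2: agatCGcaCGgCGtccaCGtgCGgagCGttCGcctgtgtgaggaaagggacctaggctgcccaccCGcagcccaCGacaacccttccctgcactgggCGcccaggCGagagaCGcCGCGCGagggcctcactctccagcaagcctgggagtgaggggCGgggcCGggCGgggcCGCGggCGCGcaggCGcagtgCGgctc
Bmp5: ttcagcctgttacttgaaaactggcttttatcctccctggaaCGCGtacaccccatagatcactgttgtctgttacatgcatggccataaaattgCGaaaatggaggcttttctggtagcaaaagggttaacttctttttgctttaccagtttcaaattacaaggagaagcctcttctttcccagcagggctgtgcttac
Inhbe: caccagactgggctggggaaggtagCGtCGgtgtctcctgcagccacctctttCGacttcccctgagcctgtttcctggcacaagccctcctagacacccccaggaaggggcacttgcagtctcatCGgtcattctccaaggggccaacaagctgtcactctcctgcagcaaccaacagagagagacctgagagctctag

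All 3 CpGs of the Bmp5 stretch were read in both replicates. Those at bases 43 and 45 were MM in 18 of 18 and 19 of 20 calls of replicate 1 and in 5 of 6 and 6 of 8 of replicate 2, and that at base 96 in 10 of 20 and 5 of 6. The 4 CpGs of the Inhbe stretch gave 17 MM calls of 25 in replicate 1, and the 1 CpG read in replicate 2 gave 2 of 5. In the CpG-dense stretches few sites reached the deposited minimum of 5 calls: 2 of the 20 at Smad6, with 10 of 10 calls CC in replicate 1, and none of the 24 at Bmpr2, whose promoter value comes from other sites within 1 kb of the start.

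Around the start the family followed the genome-wide shape, with higher CC in the bins past the start. In each 200 bp bin centred from 500 to 4500 bp past the start, the CC share summed over the 55 genes lay above that of all genes in both replicates. At 1500 bp 74.5 and 65.2% of calls were CC, against 50.7 and 46.7% over all genes, and at 2700 bp 44.2 and 51.7%, against 32.9 and 29.4%. The difference was not tested, and the bins of the 55 genes held only 154 to 463 calls in replicate 2. These bins run past the end of the shorter genes, such as Id1 of 1160 bp, and genes with more calls weigh more. The median CC of the measured bodies was 21.7 and 18.4% over the family and 21.3 and 17.3% over all genes. HC/CH was 5.48 and 8.65% of calls at 900 bp before the start and 1.25 and 2.71% at 500 bp past it, where all genes had 4.27 and 4.20% and 1.66 and 1.79%. In the upstream region, from 5 to 1 kb before the start, the median over 52 genes was 5.61 and 4.62% HC/CH and 23.1 and 18.5% CC. Over 16772 genes it was 4.67 and 3.85% HC/CH and 23.5 and 19.05% CC.

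**Figure D2:**
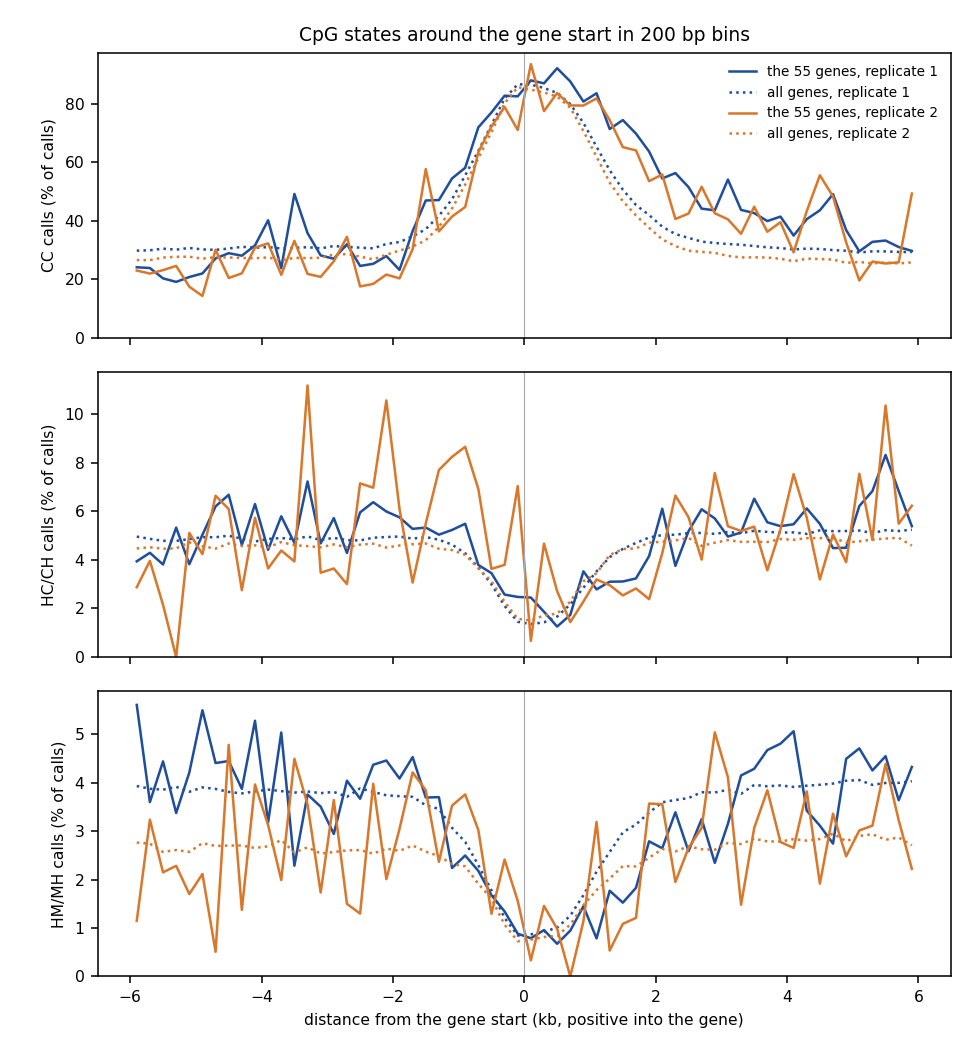
CC, HC/CH and HM/MH levels (percentage of calls, summed over genes) in 200 bp bins by distance from the gene start, for the 55 genes (solid) and all autosomal protein-coding genes (dotted), replicate 1 in blue and replicate 2 in orange. CC peaks and both hydroxymethylated states dip near the start in both sets, and the solid CC lines lie above the dotted ones from 500 to 4500 bp past the start.

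In the gene bodies the family held genes with more and genes with less HC/CH than the genome. Each body with at least 20 sites in each replicate was compared with all other tested bodies by a two-sided Fisher's exact test on its HC/CH calls, with Benjamini-Hochberg adjustment over 14596 genes, and called when the adjusted p was under 0.05 with the same direction in both replicates. All bodies together held 4.6% HC/CH in replicate 1 and 4.12% in replicate 2. Of the 46 bodies measured, 8 were called higher (17.4%, against 15.7% of all genes) and 7 lower (15.2%, against 10.8%), shares near the background. The median HC/CH level was 4.93 and 4.29% over the family and 5.01 and 4.30% over all genes. Calls of neighbouring CpGs share read pairs and are not independent, so these p-values are too small and the binomial intervals too narrow. The 15 called bodies were also deeper than the other 31, with a median of 957 calls in replicate 2 against 372. The direction of replicate 1 held in the other sample: of 20 bodies called higher in replicate 1 alone (5293 of 14596 over all genes) all 20 were above the pooled level in replicate 2, and of 13 called lower (3095 over all genes) all 13 were below, against 89.2 and 94.8% for all genes.

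Both inhibitory Smads were called higher. Smad7 was at 7.75% HC/CH (6.89 to 8.67%) in replicate 1 and 7.03% (5.53 to 8.78%) in replicate 2, with an adjusted p of 2.91e-15 and 1.72e-04 by Fisher's exact test. Smad6 was at 6.98% (6.42 to 7.57%) and 8.10% (6.84 to 9.51%). Of the other Smads, Smad5 was called lower, at 3.66 and 1.12%. Smad1 (6.33 and 4.62%), Smad2 (5.82 and 4.66%), Smad3 (6.47 and 4.92%), Smad4 (6.15 and 4.88%) and Smad9 (5.92 and 4.40%) passed the test in replicate 1 only. Their replicate 2 values lay above the pooled 4.12% but within counting error of it.

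Of the ligands, Gdf11, a patterning ligand of the axial skeleton on chromosome 10 (128882295 to 128891718, minus strand), had the highest body HC/CH of the 46 measured, at 8.71% (6.71 to 11.1%) and 11.8% (7.996 to 16.6%). Bmp8a (6.99 and 8.12%) and Tgfb3 (6.13 and 6.59%) were called higher as well. Bmp8a has a near-identical neighbour, Bmp8b (5.02 and 3.76%, not called), and how reads that match both were placed is not given in the sources used here. The span of Bmp8a also overlaps Oxct2a, and that of Bmp8b overlaps Oxct2b and Ppie. That of Tgfb3 overlaps Ttll5, that of Bmp6 Txndc5 and that of Gdf5 Gm15557. The calls of the overlapping genes cannot be separated from theirs. Bmp5 (3.12 and 1.71%) and Bmp6 (4.14 and 3.07%) were called lower. Bmp4 (1.60 and 1.99%), Gdf2 (2.19 and 0.719%) and Bmp10 (2.73 and 1.29%) had low levels too, but passed the test in replicate 1 only. Bmp7 was at 6.76 and 4.23% and likewise passed in replicate 1 only. Gdf5, a ligand of joint formation, was at 7.81 and 9.09% and missed the call with an adjusted p of 0.0557 in replicate 2 by Fisher's exact test. Tgfb2 was at 3.87 and 3.91%. Bmp2, Bmp3, Gdf6, Gdf9, Gdf10 and Tgfb1 were not called, with levels from 1.14% (Bmp2, replicate 2) to 6.62% (Gdf9, replicate 2).

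The receptors held both directions within 1 class. Of the type I receptors, Acvr1b, the activin receptor ALK4 (7.11 and 7.31%), and Acvrl1 (chromosome 15, 101128522 to 101145336, plus strand; 7.63 and 9.26%) were called higher. Tgfbr1 (3.04 and 1.54%), Bmpr1b (3.17 and 2.32%) and Acvr1c, the Nodal receptor ALK7 (2.94 and 1.77%), were called lower. Acvr1 (4.83 and 3.84%) and Bmpr1a (5.48 and 5.01%) were not called. Of the type II receptors Acvr2b was called higher, at 7.90% (7.10 to 8.76%) and 7.26% (5.86 to 8.86%). Its close relative Acvr2a, which binds many of the same ligands, was at 4.61% (3.998 to 5.29%) and 2.03% (1.20 to 3.18%). The intervals of the pair, which treat calls as independent, did not overlap in either replicate. The span of Acvr2a overlaps Orc4, and that of Acvr1 overlaps Gm17409. Tgfbr2 (3.69 and 3.03%) and Bmpr2 (4.13 and 3.45%) were not called, nor was the co-receptor Tgfbr3 (4.66 and 3.89%).

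The 4 activin and inhibin subunit bodies measured were not called. Inhbe stood at 6.55 and 5.96%, Inhbb at 7.11 and 5.05%, Inhbc at 5.80 and 5.75% and Inhba at 3.52 and 2.56%. Id4 was the only Id gene with enough body sites, at 4.81 and 2.44%. Tgfbrap1 was called lower, at 3.42 and 2.40%, and Tgfb1i1 stood at 8.48 and 6.47%, past the test in replicate 1 only, and Bmp1 at 5.19 and 3.97%. The bodies of Gdf1, Gdf3, Gdf7, Gdf15, Id1, Id2, Id3, Inha and Tgfbr3l had too few sites.

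**Figure D3:**
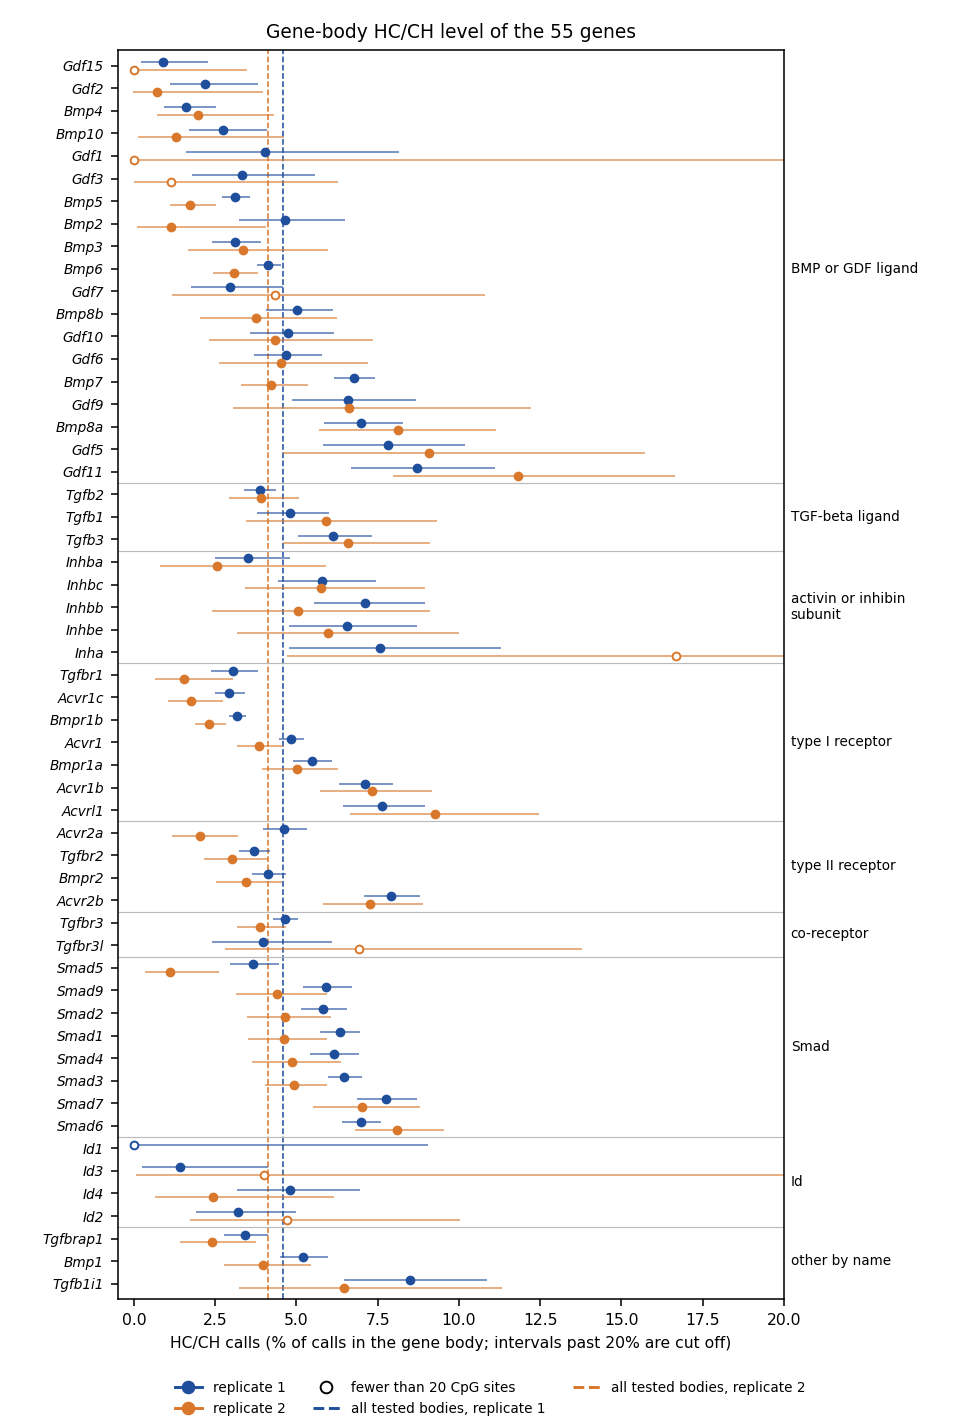
Gene-body HC/CH level of each of the 55 genes, as a percentage of calls, in replicate 1 (blue) and replicate 2 (orange), grouped by role. Lines are 95% binomial intervals, open points have under 20 CpG sites, and dashed lines give all tested bodies together (4.6 and 4.12%). Gdf11, Acvrl1, Smad6, Smad7 and Acvr2b lie to the right of both lines, and Tgfbr1, Acvr1c, Bmpr1b and Bmp5 to the left.

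Bodies with more CC by definition had a smaller share of modified calls, so HC/CH was also taken as a share of the modified calls alone. The HC/CH level itself rose with body CC, with a rho of 0.566 and 0.383 over the family and 0.392 and 0.386 over all genes. High shares at bodies rich in CC are therefore not particular to these genes. Over all tested bodies 5.84 and 5.03% of modified calls were HC/CH, and the median was 7.27 and 5.28% over the family's 46 bodies and 6.66 and 5.43% over all genes. At Smad7, where 64.4 and 61.8% of body calls were CC, the share was 21.8% (19.5 to 24.1%) and 18.4% (14.7 to 22.6%). It was 17.5 and 17.8% at Inhbe, 13.4 and 15.9% at Gdf11, 13.6 and 14.8% at Acvrl1, 12.2 and 10.4% at Acvr2b and 11.3 and 11.9% at Smad6. Bmp4, whose body was at 87.2 and 79.5% CC, had 19 HC/CH calls among 151 modified calls in replicate 1 (12.6%) and 6 among 62 in replicate 2 (9.68%), both above the share of all bodies, though the interval of replicate 2 (3.64 to 19.9%) includes it. At Bmp5 the share was 3.72 and 1.98% and at Acvr2a 5.45 and 2.26%.

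Summed over the bodies of all 55 genes, including the 9 with too few sites to be measured, exons were less modified than introns. There 31.0 and 26.3% of exon calls were CC, against 20.03 and 17.1% of intron calls, and HC/CH made up 5.20 and 4.63% of exon calls and 4.83 and 4.07% of intron calls. The exons of those 9, where covered, all lay above this exon CC, for example Gdf15 at 96.2 and 96.0%. The sums without them were not computed. Gene by gene the picture was mixed. Over 36 bodies with at least 10 sites of each kind, CC was higher in exons in both replicates at 12 and higher in introns at 18, and HC/CH was higher in exons at 15, higher in introns at 7, and of mixed sign at 14. Gdf11 had more HC/CH in exons (11.9 and 15.0% against 5.95 and 9.49%). Smad7 (5.65 and 2.86% against 8.19 and 8.37%), Smad6 (1.77 and 3.92% against 7.40 and 8.23%) and Tgfb3 (2.58 and 2.60% against 7.05 and 7.29%) had more in introns. The exons of Smad6 and Smad7 were at 88.2 and 66.7% CC and at 79.4 and 77.6%. In replicate 2 the exons of Smad6 held only 51 calls over 10 sites and those of Tgfb3 77 over 14. These differences between exons and introns were not tested.

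Along single loci the unmodified stretch ended at different distances. At Bmp4 (chromosome 14, 46383520 to 46390669, minus strand), whose span overlaps the annotated gene Gm15217, each 1 kb window from the start to 5 kb into the gene was at 95.05% CC or more in both replicates. Windows with under 20 calls in either replicate are left out. CC was 30 and 22.9% between 6 and 7 kb, at the end of the gene, and again 84.5 and 87.5% between 9 and 10 kb, past it. A further low-modification window lay 8 to 7 kb before the start, at 88.7 and 90.5%. The windows of Gdf3 were at 97.4 and 100% over the first kb of the gene, and its whole body, of 43 and 12 sites, at 87.1 and 83.9%.

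At Smad7 the windows from 1 kb before the start to 2 kb past it were at 100% CC in both replicates. Further in CC was lower, with 10.8 and 12.1% HC/CH between 5 and 6 kb and 13.5 and 21.6% between 30 and 31 kb, just past the gene's end. At Smad6 the measured windows over the first 5 kb of the gene were at 91.9% CC or more. The next kb was at 52.0 and 41.8% CC and 11.4 and 16.4% HC/CH. At Acvr2b CC was 97.8 and 98.9% between 1 and 2 kb and 41.9 and 44.1% in the next window, and a second stretch with more CC, at 76.4 and 91.7%, lay 25 to 26 kb into the gene. These 6 loci were picked after their values were seen.

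**Figure D4:**
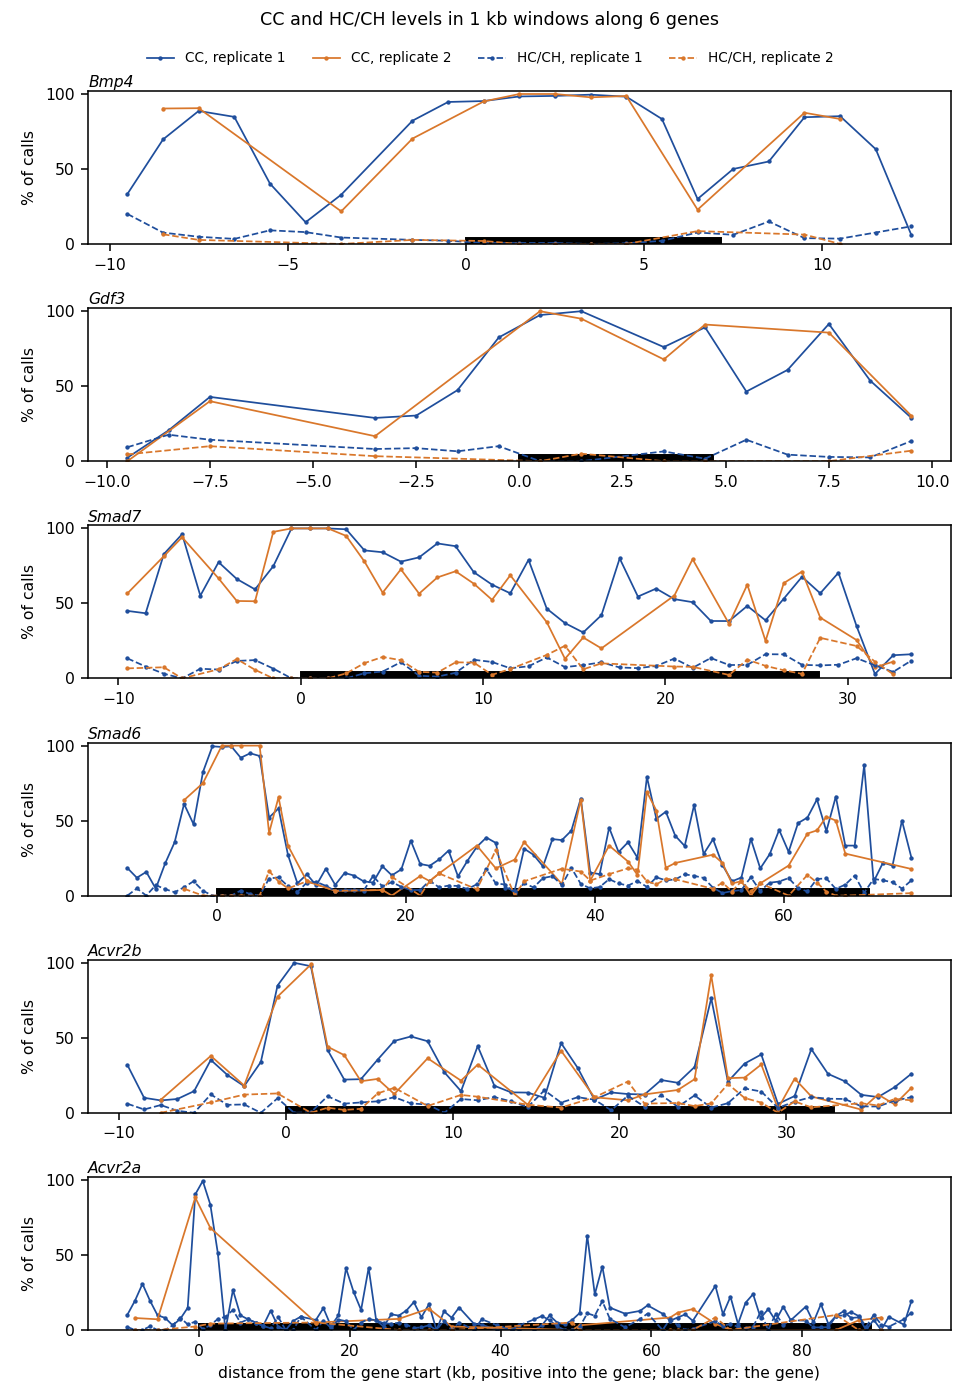
CC (solid) and HC/CH (dashed) levels in 1 kb windows with at least 20 calls, by distance from the gene start, at Bmp4, Gdf3, Smad7, Smad6, Acvr2b and Acvr2a, replicate 1 in blue and replicate 2 in orange. Black bars are the genes. Bmp4 and Smad7 are unmodified well past the start, while Acvr2b has a further CC peak (76.4 and 91.7%) 25 kb into the gene.

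The body window with the highest HC/CH also lay in Acvr2b. Windows of 300 bases were moved in steps of 100, so that neighbours overlap. Of 23 with at least 50 calls in each replicate, in 11 genes, the median was 4.55 and 1.92% HC/CH. The top window, chr9:119429819-119430118 (GRCm38.p6, RefSeq, plus strand, chromosome 9, 27701 to 28000 bases into the gene), held 22.8% HC/CH (36 of 158 calls, 16.5 to 30.1%) in replicate 1 and 13.1% (8 of 61, 5.84 to 24.2%) in replicate 2. Since it was chosen for these values, they are a description. Bases 47 to 190 are coding exon and the rest intron. It is shown with CpGs in capitals.
Acvr2b: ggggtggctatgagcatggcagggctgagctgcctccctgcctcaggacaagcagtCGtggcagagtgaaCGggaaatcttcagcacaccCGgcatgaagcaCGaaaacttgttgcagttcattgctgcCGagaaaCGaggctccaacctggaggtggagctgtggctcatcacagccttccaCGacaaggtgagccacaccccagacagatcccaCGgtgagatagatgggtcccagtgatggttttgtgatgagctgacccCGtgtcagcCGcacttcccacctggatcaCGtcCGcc

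All 12 CpGs of this window were read in replicate 1 and 9 in replicate 2, and HC/CH calls fell on 11 and 7 of them. At the CpG at base 57 of the stretch 6 of 16 calls were HC/CH in replicate 1 and 1 of 5 in replicate 2, at base 91 6 of 13 and 1 of 6, at base 130 5 of 19 and 1 of 5, and at base 293 4 of 9 and 2 of 9. MM made up 24.1 and 47.5% of the window's calls and CC 36.1 and 24.6%.

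For HM/MH, by the same test, 4 of 46 bodies were called higher (8.70%, against 2.5% of all genes), those of Bmp7 (5.19 and 3.99% of calls), Smad3 (4.97 and 4.74%), Smad4 (5.66 and 4.22%) and Tgfb3 (5.70 and 5.62%). None was called lower (Fisher's exact test, against 2.82% of all genes), and none had an unadjusted p under 0.05 in both replicates in that direction. These counts depended on the sites and the replicate: 1 of 45 was higher on sites covered in both replicates, and in replicate 1 alone 12 of the 46 were higher and 4 lower, against 1538 and 1765 of all 14596 genes. The median HM/MH level was 4.39 and 2.82% over the family and 4.23 and 2.69% over all genes. In the methylated lambda DNA of the same libraries the HM/MH level was 3.88% (replicate 1) and 0.340% (replicate 2), with 91.0 and 92.4% of its calls MM. Corrected with the call rates of the spike-in duplexes, the 4 bodies were at 2.66 and 3.68% (Bmp7), 2.11 and 4.43% (Smad3), 2.92 and 3.88% (Smad4) and 2.80 and 5.28% (Tgfb3). The test was not repeated on corrected levels. The corrected median was 1.86 and 2.49% over the family and 1.61 and 2.33% over all genes, whose upper quartile of 2.22 and 3.14% lay above Smad3 in replicate 1. For HC/CH the same controls were low, at 0.153 and 0.0863% in lambda and 0.0344 and 0.0859% in the unmethylated pUC19 plasmid. By the call rates from the spike-in duplexes, MC sites, methylated on 1 strand, were called HC in 3.49 and 0.615% of calls, and HM sites were called HC in 2.09 and 2.48%. MC/CM made up a median of 12.4 and 13.8% of body calls in the family. Corrected for these rates the median HC/CH was 4.53 and 4.27%, against 4.93 and 4.29% uncorrected. Of the 4 bodies only Tgfb3 was called in both states.

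The H of HC/CH lay on the sense strand in 51.2% of calls (50.2 to 52.2%) in replicate 1 and 50.0% (47.7 to 52.3%) in replicate 2 over the 46 bodies. No body was called for the sense strand or for the antisense strand by an exact binomial test (0.0% of all 14596 genes for the sense strand and 0.0% for the antisense). At an unadjusted p under 0.05, 3 of the 46 differed in replicate 1 and 1 in replicate 2, against 1158 and 835 of all 14596 genes, and none did in both.

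The Id genes were read with a motif in view, since BMP Smads bind the sequence GGCGCC upstream of Id1. The motif, which reads the same on both strands and holds 1 CpG, occurs within 1 kb of the start in 33 of the 55 genes (60%) and in 40.1% of all genes. The promoters of the 55 genes also hold more CpGs, with a median of 110 against 64 over all genes. Among unmodified promoters the motif occurs in 69.2% of the family's and 61.7% of those genome-wide. From 5 kb before the start to the gene's end it occurs 18 times in the Id genes: 1 in Id1, 7 in Id2, 6 in Id3 and 4 in Id4. In replicate 1 6 of these CpGs were covered, with 45 of 46 calls CC, and in replicate 2 2 were covered, with 7 of 10. The calls other than CC of replicate 2 came from the motif 2325 bases after the start of Id2, with 2 CC of 5 calls in replicate 2 and 9 of 9 in replicate 1. The 1 motif of Id1 (chromosome 2, 152736251 to 152737410, plus strand) lies 1099 bases before its start and was not covered. It is shown in capitals with its 30 bases on either side, chr2:152735122-152735187 (GRCm38.p6, RefSeq, plus strand), because 2 nearby CpGs, at bases 49 and 53 of the stretch, gave 5 of 5 CC calls each in replicate 1.
Id1: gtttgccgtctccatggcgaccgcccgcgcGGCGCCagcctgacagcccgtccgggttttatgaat

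Upstream of the promoter Id2 had the highest CC of the family. Its region from 5 to 1 kb before the start was at 94.5% CC over 84 sites and 98.9% over 16, and that of Id1 was at 69.6 and 67.9%. Id3 (41.1 and 33.3%) and Id4 (15.7 and 14.8%) were lower. Of the other genes, Smad7 (71.6 and 68.6%), Gdf11 (62.2 and 63.7%), Tgfb3 (57.6 and 65%), Smad6 (63.4 and 56.9%) and Inha (69.3 and 50.0%) also had at least 50% CC in both replicates. The 5 kb before the start overlaps the gene Ift43 at Tgfb3 and the gene Obsl1 at Inha, whose calls cannot be separated from theirs. The upstream regions of Tgfb2 (3.94 and 4.17%) and Bmp3 (5.83 and 4.62%) lay at the other end.

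Further genes of the pathway, among them secreted antagonists, matrix binders, co-receptors, ubiquitin ligases and nuclear repressors, were read as a list of 33, 28 with a measured promoter and 27 with a measured body. Of these promoters 14 (50.0%, against 53.2% of all genes) were unmodified and 4 (14.3%, against 19.5%) modified. In the bodies HC/CH was called higher in 4 (14.8%, against 15.7%) and lower in 5 (18.5%, against 10.8%), and HM/MH higher in 2 (7.41%, against 2.5%) and lower in 4 (14.8%, against 2.82%). The 4 with higher HC/CH were Ski (8.71 and 9.33%) and Skil (6.93 and 6.94%), which encode repressors that bind Smads, Eng (7.96 and 7.91%), the co-receptor endoglin, and Smurf1 (6.31 and 5.42%), a ubiquitin ligase for Smads. Ski and Eng were also the 2 with higher HM/MH, at 5.33 and 4.69% and at 6.04 and 5.16%.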

How the data were processed

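The deposited tables give, for each CpG and replicate, whole-number counts of the 9 CpG states and the percent each forms. Per the study's methods, the authors trimmed reads (Cutadapt 4.6), aligned them to GRCm38/mm10 with BSBolt, removed duplicates (Picard 3.1.1), called states from both strands and discarded blacklisted sites and sites with fewer than 5 calls. The deposited counts carry no correction for miscalls. Only the counts were used here.

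Counts were summed per gene and region (promoter 1 kb either side of the outermost gene start, body the rest, upstream 5 kb), with at least 5 promoter and 20 body sites in each replicate. Body HC/CH and HM/MH were compared with all other tested bodies by a two-sided Fisher's exact test, and strands by an exact binomial test, with Benjamini-Hochberg adjustment over all genes (Python 3.11.15, SciPy 1.17.1). A call needed adjusted p under 0.05 and the same direction in both replicates. All positions fell on a CpG of GRCm38.p6. The Fisher's exact tests, but not the strand test, were also run on simulated calls with known changes in some genes. These calls were drawn independently at the pooled rate, so shared read pairs were not covered. The genes and lists were chosen with earlier results of these data known. Named were all modified promoters, all called bodies, the extremes of each role, the Id genes, Smad6 and Smad7. The alternatives tried were a minimum of 10 calls, shared sites, a 500 bp promoter, summed replicates, per-site means, miscall correction, each replicate alone and principal transcript starts.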

Additional observations from a re-analysis of the deposited data

How the results depend on the processing

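The limits were depth, above all that of replicate 2, and the number of samples. No paired analysis was possible because there is 1 group. With a minimum of 10 calls per site only 1 promoter and 2 bodies were left, giving 1 unmodified and 0 modified promoters, 0 bodies with higher and 0 with lower HC/CH, 0 with higher HM/MH, and medians of 97.5% promoter CC and 3.54% body HC/CH. On shared sites 10 promoters were modified, 4 bodies had lower HC/CH and 1 higher HM/MH, and median promoter CC was 77.7%. With a 500 bp promoter only 28 were measured, 17 of them unmodified, at a median of 95.8%. Summed replicates gave 21 bodies higher and 14 lower in HC/CH, and 13 higher and 4 lower in HM/MH. Correction for miscalls gave medians of 86.3% promoter CC and 2.17% HM/MH. The tests on bodies were not repeated with this correction or with per-site means. Principal transcript starts, chosen after seeing the data, gave a median promoter CC of 85.8%. With 1 replicate left out, which without replicate 2 also raised the promoters measured from 48 to 55 and the bodies from 46 to 54, unmodified promoters numbered 28 to 34, modified 5 to 10, bodies higher in HC/CH 8 to 21 and lower 8 to 15, higher in HM/MH 6 to 12 and lower 0 to 10. The medians ran from 85.0 to 85.8% (promoter CC), 4.29 to 4.78% (HC/CH) and 2.82 to 4.29% (HM/MH).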

Other observations

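The outermost annotated start was used for each gene, and for 3 genes the start of the principal transcript changed the promoter call. Gdf9, an oocyte ligand, has its principal start 2276 bp further in, where the promoter was at 20.3 and 16.7% CC over 17 and 5 sites. It was at 97.2 and 98.5% at the outermost start, whose upstream region overlaps the gene Uqcrq. Bmpr1a has it 654 bp further in, at 96.7 and 92.5% CC against 84.9 and 55.4%, and Acvr2b 326 bp further in, at 97.6 and 93.5% against 92.3 and 77.4%. At the others whose values moved, Acvr1, Bmp1, Bmp8a and Tgfb1i1, the principal start gave 90.3% CC or more in both replicates.

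Over the 46 measured bodies of the family, the levels of the 2 replicates correlated with a Pearson r of 0.874 for HC/CH and 0.480 for HM/MH, across genes that share libraries and are not independent. Uncorrected HM/MH was higher in replicate 1 at 39 of the 46, and HC/CH at 34. Corrected for miscalls, the HM/MH order was the opposite, with medians of 1.86% in replicate 1 and 2.49% in replicate 2.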
